A study of Mus musculus with 10 samples.

Results

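A set of 10 genes of docosahexaenoic acid (DHA) handling was followed in mouse barrel cortex with and without a conditional deletion of Rxra, which encodes retinoid X receptor alpha. The genes were taken by symbol from the deposited table of 52636 genes. They were Mfsd2a for uptake, Fabp3, Fabp5 and Fabp7 for binding in the cytosol, Fads1 and Fads2 for desaturation, Elovl2, Elovl4 and Elovl5 for elongation, and Acsl6 for activation. All 10 of them were found, each once, and all 10 were among the 18455 genes that had enough reads to be tested.

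DHA is the main omega-3 fatty acid of brain membranes. It reaches the brain mostly as a lysophospholipid carried across the blood-brain barrier, and part is built from shorter precursors by alternating desaturases and elongases, largely in astrocytes. In the cytosol it is held by fatty acid binding proteins and is joined to coenzyme A before it enters phospholipids. Free DHA is also a ligand of the retinoid X receptors, which bind DNA as dimers with each other or with partners such as the LXR, PPAR and retinoic acid receptors.

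The tissue, S1BF, is the whisker barrel field within primary somatosensory cortex, taken from C57BL/6 mice on postnatal day 17. The cKO mice (4 libraries) carried Nex-cre and the floxed allele Rxratm1Krc/J, with Rxra named as the conditional knockout. The Hetero mice (2 libraries) carried Nex-cre and the same allele as the heterozygous conditional knockout, named Rxra cKO-Het. The Loxp mice (4 libraries) carried the floxed allele and no Cre. Nex-cre is a Cre gene placed in Neurod6 and acts in excitatory neurons of the cortex, so astrocytes, endothelium and interneurons of a cKO cortex lie outside the deletion, and cKO and Loxp differ in Cre as well as in Rxra. Whether each library is a separate animal is not said in the labels, so every p-value measures the spread between these samples.

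Totals ran from 19332990 to 26086337 counts per library. Levels are given as CPM, the counts relative to a library total scaled by the trimmed mean of M-values, and a comparison across genes uses the authors' FPKM, which also divides by gene length. Rxra counted over the whole gene lay at 21.6 to 32.3 CPM over the 10 libraries. Such a count includes transcripts that lack the floxed part and does not check the deletion. Neurod6, the gene that holds Nex-cre, had 32.9, 22.9, 38.1 and 24.0 CPM in cKO and 34.4 and 34.0 CPM in Hetero, against 66.7, 55.7, 61.9 and 34.9 CPM in Loxp. The last of these, the library labelled Loxp 4, lay within the range of the Cre groups. The log2 fold changes of the 10 genes against Loxp are therefore given with and without it. Their SE and the values of the further gene lists are given only with it. Excitatory neuron markers, summed over 15 genes with Neurod6 among them, were at 9520 to 11008 CPM in every library. Most of that sum came from Nrgn, Camk2a and Slc17a7, so it says little about the lower markers. Of these, Bcl11b ranged from 51.3 to 91.2 CPM and Rorb from 43.7 to 80.0 CPM.

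The DHA genes were well expressed in this tissue, as the plot of length-scaled levels shows. Fabp3, the heart-type binding protein that neurons carry, was the highest of the 10, at 104 ± 5.21 FPKM in cKO (SD, n = 4), 105 ± 12.1 FPKM in Hetero (SD, n = 2) and 109 ± 13.1 FPKM in Loxp (SD, n = 4). Fads2, the desaturase that opens the pathway, came next with 82.9 ± 25.3 FPKM in cKO, 73.3 ± 3.27 FPKM in Hetero and 71.9 ± 7.09 FPKM in Loxp. Fads1, the desaturase that acts after the first elongation, followed with 52.7 ± 5.11 FPKM in cKO, 49.7 ± 1.66 FPKM in Hetero and 50.9 ± 4.71 FPKM in Loxp. Elovl2, the elongase of the last elongation steps before DHA, was the lowest, with 6.07 ± 1.39 FPKM in cKO, 6.16 ± 0.365 FPKM in Hetero and 6.12 ± 1.45 FPKM in Loxp. The other 6 genes, Acsl6, Elovl4, Fabp5, Fabp7, Mfsd2a and Elovl5, averaged 19.3 to 24.4 FPKM over the 10 libraries.

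The order of these levels was firm at its ends and loose in the middle. In each of the 3 groups Fads2 lay above Fads1 without overlap, Fads1 lay above the gene ranked next, and Elovl2 lay below the gene ranked just above it. Among the middle genes, neighbours in rank overlapped in cKO and in Loxp at every step, and in Hetero at every step except between Elovl4 and Fabp7. Fabp3 and Fads2 overlapped in cKO, where 1 Fads2 library reached 120 FPKM, and did not overlap in Hetero or in Loxp.

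**Figure D1:**
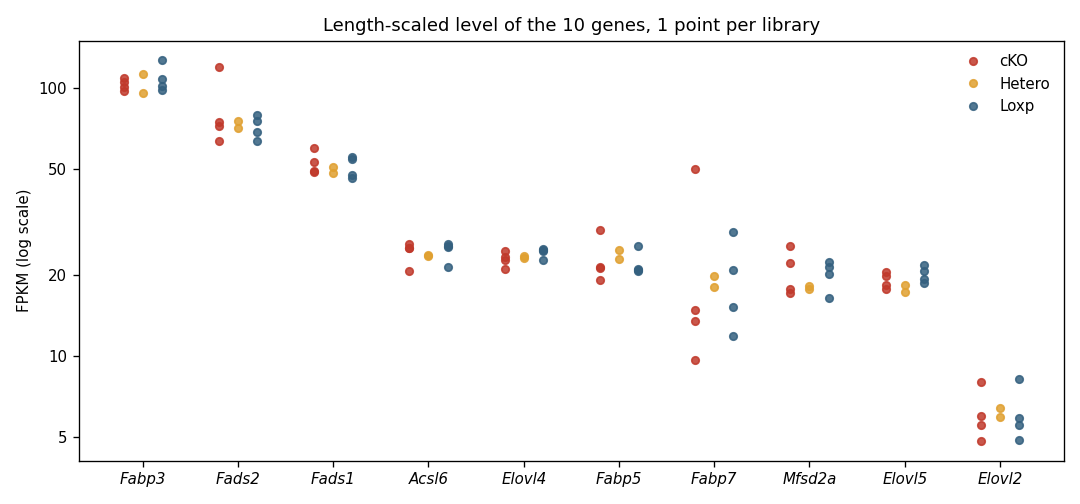
FPKM of each of the 10 genes on a log axis, with 1 point per library and cKO, Hetero and Loxp side by side within each gene. Fabp3 stands highest with a mean of 106 FPKM over the 10 libraries, Elovl2 lowest with 6.11 FPKM, and Fabp7 is the most widely scattered.

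The 3 binding proteins belong to a family of small barrel-shaped proteins, and reads could be confused between relatives only where their sequences match. Their coding sequences, from the GENCODE M21 transcripts, were 66.7% identical between Fabp3 and Fabp7, 55.7% between Fabp3 and Fabp5 and 55.4% between Fabp5 and Fabp7. The longest run without a mismatch was 20 bases, between Fabp3 and Fabp7. A stretch of 120 bases near the start of each coding sequence shows how far the genes differ, with capitals at the 60 bases shared by all 3. It spans coding bases 8 to 127 of Fabp3, 14 to 133 of Fabp5 and 8 to 127 of Fabp7, and each line runs 5′ to 3′.
Fabp3: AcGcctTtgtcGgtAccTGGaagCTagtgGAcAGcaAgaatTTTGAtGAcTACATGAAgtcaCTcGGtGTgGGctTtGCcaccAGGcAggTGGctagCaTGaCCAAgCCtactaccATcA
Fabp5: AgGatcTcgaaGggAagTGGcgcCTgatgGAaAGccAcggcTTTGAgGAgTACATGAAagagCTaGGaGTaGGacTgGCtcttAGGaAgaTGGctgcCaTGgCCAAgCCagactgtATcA
Fabp7: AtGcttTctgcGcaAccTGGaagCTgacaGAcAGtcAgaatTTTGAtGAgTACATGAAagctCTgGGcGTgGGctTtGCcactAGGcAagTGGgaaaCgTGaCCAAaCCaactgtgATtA
Processed copies were the other source of doubt. With a minimum identity of 90% over 50% of the coding length, Fabp3 has 1 processed pseudogene and Fabp5 has 5. These copies held 4 to 14 counts per library beside Fabp3, or 0.187% to 0.742% of the gene's and its copy's reads, and 8 to 23 counts beside Fabp5, or 0.409% to 1.15%. The copy of Fabp3 is 99.3% identical over the coding length. Counts do not tell how reads matching both gene and copy were handled, so they do not show how many such reads there were. The other 8 genes had no such copy. Fabp3 also overlaps Zcchc17 and Gm10570 on the opposite strand and Acsl6 overlaps Gm12224. The strand setting of the counting is not given in the sources used here, so the counts of Fabp3 and Acsl6 may include reads of those neighbours.

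No gene of the set passed the test between any of the groups. In cKO against Loxp, 0 of the 10 passed an adjusted p of 0.05 in edgeR's quasi-likelihood test, where 0% of the 18455 genes tested did. At an unadjusted p under 0.05 there were 0 of the 10, beside 2.53% of all genes. In Hetero against Loxp the counts were again 0 of 10 at the adjusted threshold, beside 0% of all genes, and 0 of 10 unadjusted, beside 2.54%. In cKO against Hetero they were 0 of 10, beside 0%, and 0 of 10 unadjusted, beside 1.74%. Every adjusted p of the 10 genes in all 3 comparisons was 1 by edgeR. The authors' deposited table likewise called 0 of the 10 in cKO against Loxp and in Hetero against Loxp, with 0 of 29220 and 25 of 27904 genes called in all.

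The intervals say how large a difference the libraries could still hide. In cKO against Loxp the 95% interval of the fold change lay within 1.5-fold either way for 9 of the 10 genes, the exception being Fabp7. In Hetero against Loxp it did so for 9, again all but Fabp7, and in cKO against Hetero for 8, all but Fabp7 and Fads2. In bulk tissue, fewer cells of a type and less RNA per cell cannot be told apart, and this holds for each value below.

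**Figure D2:**
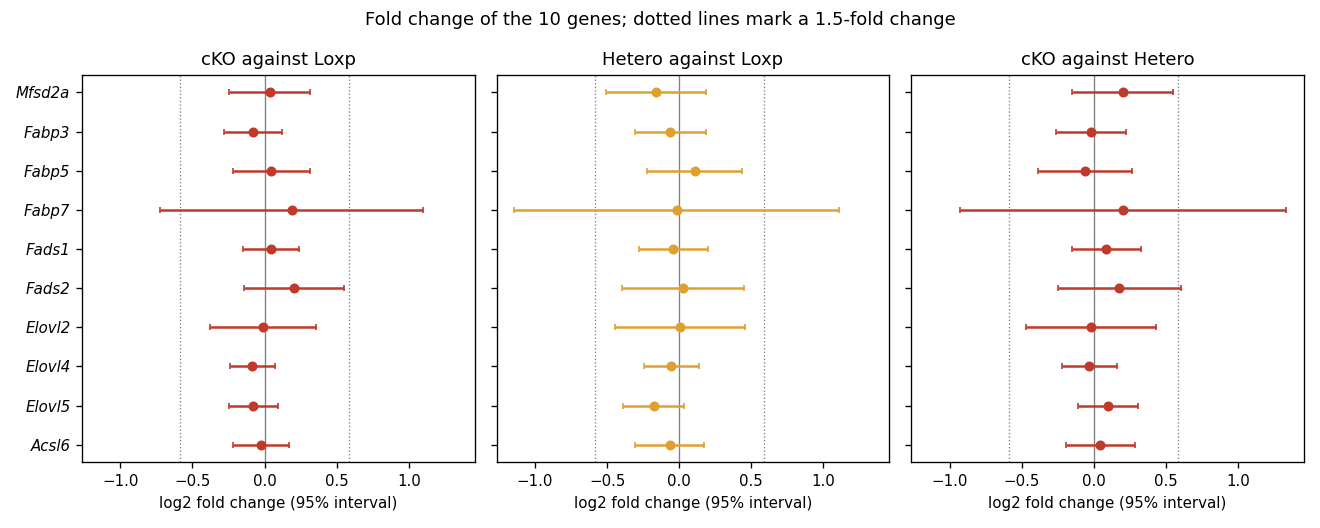
Log2 fold change of the 10 genes with its 95% interval in the 3 comparisons, named above the panels. Every interval includes 0, and Fabp7 has by far the widest, from −0.72 to 1.10 in cKO against Loxp.

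Mfsd2a (ENSMUSG00000028655, chromosome 4, 122946850 to 122961188, minus strand, GRCm38) encodes the transporter that carries DHA as lysophosphatidylcholine through the endothelium of the blood-brain barrier. It had 39.0, 58.3, 40.2 and 50.2 CPM in cKO, 40.4 and 41.4 CPM in Hetero, and 48.7, 51.0, 37.5 and 45.8 CPM in Loxp. The Hetero values sat close together inside the range of the other groups, and cKO 2 was the highest of all. The means were 46.9 ± 9.11 CPM in cKO (SD, n = 4), 40.9 ± 0.710 CPM in Hetero (SD, n = 2) and 45.8 ± 5.76 CPM in Loxp (SD, n = 4). Set against Loxp, Mfsd2a had a log2 fold change of 0.04 in cKO (SE 0.130) and −0.16 in Hetero (SE 0.161), and set against Hetero it was 0.20 in cKO (SE 0.161), with an edgeR adjusted p of 1 for each. Its transcript is a product of endothelial cells, whose 15 markers summed to 476 to 724 CPM in cKO, 574 to 579 CPM in Hetero and 578 to 701 CPM in Loxp. That sum was highest in cKO 2, but of its 15 genes 5 were highest in cKO 2 and 7 in Loxp 2. The part of the endothelial share in the Mfsd2a values was not tested.

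The promoter of Mfsd2a is shown together with those of Fabp7 and Acsl6, because these were the 3 genes of the set whose promoter window held the letters AGGTCA on either strand. AGGTCA is the hexamer to which RXR and its partners bind, usually as a repeat. The windows are from RefSeq on GRCm38.p6, span 250 bases before to 50 after the start site, and were found for 8 of the 10 genes, with Fabp5 and Fads1 unmatched. Each line below runs 5′ to 3′ on the gene's strand and gives the bases up to the gene start of the GENCODE model. Capitals mark AGGTCA or its reverse complement TGACCT, and the CCAAT box or its reverse complement ATTGG.
Mfsd2a, chr4:122961189-122961438: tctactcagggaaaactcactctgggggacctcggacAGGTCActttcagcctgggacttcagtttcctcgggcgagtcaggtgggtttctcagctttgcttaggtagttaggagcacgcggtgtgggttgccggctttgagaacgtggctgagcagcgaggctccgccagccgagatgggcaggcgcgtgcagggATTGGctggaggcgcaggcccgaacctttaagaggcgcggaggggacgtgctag
Fabp7, chr10:57784673-57784880: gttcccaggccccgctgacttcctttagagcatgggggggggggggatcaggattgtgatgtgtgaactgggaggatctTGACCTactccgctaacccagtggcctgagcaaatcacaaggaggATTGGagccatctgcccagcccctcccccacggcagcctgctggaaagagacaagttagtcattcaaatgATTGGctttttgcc
Acsl6, chr11:54303574-54303797: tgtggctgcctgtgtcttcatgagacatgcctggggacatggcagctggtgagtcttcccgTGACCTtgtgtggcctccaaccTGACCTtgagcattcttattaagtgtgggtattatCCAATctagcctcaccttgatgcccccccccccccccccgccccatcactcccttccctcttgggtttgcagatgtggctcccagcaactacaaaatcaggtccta
The hexamer lay 213 bases before the RefSeq start of Mfsd2a, 171 before that of Fabp7, and 189 and 167 before the upstream start of Acsl6. Of 32851 promoter windows of the same length in all genes, 16.3% held AGGTCA on either strand, so windows with it are common. The direct repeats AGGTCANAGGTCA and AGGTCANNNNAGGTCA, which RXR dimers can bind, were in 0 of the 8 genes and in 0.0396% and 0.0152% of all windows. The sterol regulatory element TCACNCCAC was in 0 of the 8 genes beside 1.24% of all windows. The CCAAT box was in 5 of the 8 genes, Mfsd2a, Fabp7, Elovl4, Elovl5 and Acsl6, beside 37.4% of all windows. The E-box CACGTG was in 2, Elovl4 and Elovl5, beside 7.15%. A gene was counted if any of its windows held the letters, and Acsl6 and Elovl2 had several windows. A count of genes is therefore not the same measure as a share of all windows. Such matches describe letters in these windows and show neither binding nor its absence.

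Fabp3 (ENSMUSG00000028773, chromosome 4, 130308595 to 130315463, plus strand) had 84.1, 80.9, 90.7 and 87.7 CPM in cKO, 79.7 and 94.2 CPM in Hetero, and 106, 82.0, 90.6 and 84.3 CPM in Loxp. Loxp 1 was the highest library and the other 9 lay within 79.7 to 94.2 CPM, so the groups overlapped almost wholly. The means were 85.9 ± 4.27 CPM in cKO (SD, n = 4), 87.0 ± 10.2 CPM in Hetero (SD, n = 2) and 90.8 ± 10.9 CPM in Loxp (SD, n = 4). Set against Loxp, Fabp3 had a log2 fold change of −0.08 in cKO (SE 0.0928) and −0.06 in Hetero (SE 0.114), and set against Hetero it was −0.02 in cKO (SE 0.114), with an edgeR adjusted p of 1 for each.

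Fabp5 (ENSMUSG00000027533, chromosome 3, 10012548 to 10016607, plus strand), the epidermal-type binding protein found in endothelium, glia and some neurons, had 76.7, 107, 76.9 and 68.9 CPM in cKO, 89.0 and 82.7 CPM in Hetero, and 75.9, 92.9, 74.7 and 75.1 CPM in Loxp. cKO 2 and Loxp 2 stood above the rest of their groups. The means were 82.3 ± 16.7 CPM in cKO (SD, n = 4), 85.8 ± 4.46 CPM in Hetero (SD, n = 2) and 79.7 ± 8.88 CPM in Loxp (SD, n = 4). Set against Loxp, Fabp5 had a log2 fold change of 0.05 in cKO (SE 0.125) and 0.11 in Hetero (SE 0.152), and set against Hetero it was −0.06 in cKO (SE 0.152), with an edgeR adjusted p of 1 for each.

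Fabp7 (ENSMUSG00000019874, chromosome 10, 57784881 to 57788450, plus strand), the brain-type binding protein with a high affinity for DHA, is made by radial glia, astrocytes and oligodendrocyte precursors. It had 18.7, 62.8, 17.0 and 12.2 CPM in cKO, 22.8 and 25.1 CPM in Hetero, and 26.4, 36.6, 19.3 and 14.9 CPM in Loxp. It was the most variable gene of the 10, with a coefficient of variation of 57.8% over the 10 libraries and a 5.16-fold span between cKO 2 and cKO 4, both of the same genotype. The means were 27.7 ± 23.6 CPM in cKO (SD, n = 4), 24.0 ± 1.66 CPM in Hetero (SD, n = 2) and 24.3 ± 9.48 CPM in Loxp (SD, n = 4). Set against Loxp, Fabp7 had a log2 fold change of 0.19 in cKO (SE 0.423) and −0.02 in Hetero (SE 0.522), and set against Hetero it was 0.20 in cKO (SE 0.524), with an edgeR adjusted p of 1 for each. Without the library labelled Loxp 4 the values against Loxp were 0.02 in cKO and −0.19 in Hetero. Leaving cKO 2 out turned the cKO values round, to a log2 fold change of −0.60 against Loxp (SE 0.240) and −0.59 against Hetero, both with an edgeR adjusted p of 1.

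Fads2 (ENSMUSG00000024665, chromosome 19, 10062765 to 10101746, minus strand) and Fads1 (ENSMUSG00000010663, chromosome 19, 10182888 to 10196877, plus strand) lie side by side, read in opposite directions, with start sites 81142 bases apart. Fads2 is the rate-limiting desaturase of the pathway. It had 114, 182, 110.1 and 96.8 CPM in cKO, 114 and 108 CPM in Hetero, and 104, 121, 115 and 96.1 CPM in Loxp. A single library, cKO 2, stood far above the other 9, which ranged from 96.1 to 121 CPM. The means were 126 ± 38.5 CPM in cKO (SD, n = 4), 111 ± 4.72 CPM in Hetero (SD, n = 2) and 109 ± 11.1 CPM in Loxp (SD, n = 4). Set against Loxp, Fads2 had a log2 fold change of 0.20 in cKO (SE 0.160) and 0.03 in Hetero (SE 0.196), and set against Hetero it was 0.18 in cKO (SE 0.198), with an edgeR adjusted p of 1 for each. Without cKO 2 the value against Loxp was −0.03 and that against Hetero −0.06.

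Fads1 had 171, 208, 184 and 169 CPM in cKO, 176 and 169 CPM in Hetero, and 162, 194, 190 and 164 CPM in Loxp. It too was highest in cKO 2, by a narrower margin over Loxp 2 than Fads2 showed. The means were 183 ± 18.1 CPM in cKO (SD, n = 4), 172 ± 5.38 CPM in Hetero (SD, n = 2) and 177 ± 16.9 CPM in Loxp (SD, n = 4). Set against Loxp, Fads1 had a log2 fold change of 0.05 in cKO (SE 0.0904) and −0.04 in Hetero (SE 0.111), and set against Hetero it was 0.09 in cKO (SE 0.111), with an edgeR adjusted p of 1 for each.

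Elovl5 (ENSMUSG00000032349, chromosome 9, 77917364 to 77984519, plus strand), the elongase of the early elongation step, had 65.1, 73.2, 70.4 and 62.8 CPM in cKO, 65.0 and 61.7 CPM in Hetero, and 66.7, 77.6, 73.9 and 68.2 CPM in Loxp. Every Loxp library was above both Hetero libraries, by a small margin, and the cKO libraries overlapped both groups. The means were 67.9 ± 4.74 CPM in cKO (SD, n = 4), 63.4 ± 2.34 CPM in Hetero (SD, n = 2) and 71.6 ± 5.03 CPM in Loxp (SD, n = 4). This was the only gene of the 10 without overlap between Hetero and Loxp, where 5.77% of all genes had no overlap in that direction and 11.4% in either. Set against Loxp, Elovl5 had a log2 fold change of −0.18 in Hetero (SE 0.0980), with an edgeR adjusted p of 1. An exact two-sided permutation test over these libraries gave p = 0.133, with 0.0667 the smallest p that 2 against 4 libraries allow. The other genes of the set had p of 0.4 to 0.933 by the same test in Hetero against Loxp. A gene without overlap gets a p near the smallest by construction, so this p adds nothing to the lack of overlap. In cKO its log2 fold change was −0.08 against Loxp (SE 0.0792) and 0.10 against Hetero (SE 0.0977), with an edgeR adjusted p of 1 for each. No gene of the set was without overlap in cKO against Loxp, beside 1.54% of all genes, or in cKO against Hetero, beside 9.43%.

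Elovl2 (ENSMUSG00000021364, chromosome 13, 41182381 to 41220405, minus strand) had 23.8, 32.0, 22.0 and 19.1 CPM in cKO, 25.5 and 23.6 CPM in Hetero, and 19.4, 32.8, 22.2 and 23.4 CPM in Loxp. Replicate 2 was the highest in cKO and in Loxp, and the group means were nearly equal. They were 24.2 ± 5.54 CPM in cKO (SD, n = 4), 24.6 ± 1.40 CPM in Hetero (SD, n = 2) and 24.4 ± 5.79 CPM in Loxp (SD, n = 4). Set against Loxp, Elovl2 had a log2 fold change of −0.01 in cKO (SE 0.170) and 0.01 in Hetero (SE 0.209), and set against Hetero it was −0.02 in cKO (SE 0.209), with an edgeR adjusted p of 1 for each.

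Elovl4 (ENSMUSG00000032262, chromosome 9, 83778692 to 83806277, minus strand), which extends fatty acids to very long chains in neurons, retina and skin, was the steadiest gene. It had 71.0, 64.7, 75.3 and 69.2 CPM in cKO, 70.8 and 72.3 CPM in Hetero, and 75.3, 69.9, 76.6 and 75.5 CPM in Loxp, a coefficient of variation of 5.14% over the 10 libraries. Here cKO 2 was the lowest of the 10, and the groups overlapped. The means were 70.1 ± 4.38 CPM in cKO (SD, n = 4), 71.5 ± 1.05 CPM in Hetero (SD, n = 2) and 74.3 ± 2.98 CPM in Loxp (SD, n = 4). Set against Loxp, Elovl4 had a log2 fold change of −0.09 in cKO (SE 0.0720) and −0.06 in Hetero (SE 0.0885), and set against Hetero it was −0.03 in cKO (SE 0.0883), with an edgeR adjusted p of 1 for each.

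Acsl6 (ENSMUSG00000020333, chromosome 11, 54303798 to 54364756, plus strand) encodes the acyl-CoA synthetase that activates DHA and keeps it in brain phospholipids. It had 252, 208, 262 and 253 CPM in cKO, 236 and 237 CPM in Hetero, and 216, 258, 256 and 261 CPM in Loxp. Low values stood alone in 2 libraries, cKO 2 and Loxp 1, and the Hetero libraries lay between them and the rest. The means were 244 ± 24.5 CPM in cKO (SD, n = 4), 236 ± 1.05 CPM in Hetero (SD, n = 2) and 247 ± 21.3 CPM in Loxp (SD, n = 4). Set against Loxp, Acsl6 had a log2 fold change of −0.02 in cKO (SE 0.0905) and −0.07 in Hetero (SE 0.111), and set against Hetero it was 0.04 in cKO (SE 0.111), with an edgeR adjusted p of 1 for each.

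**Figure D3:**
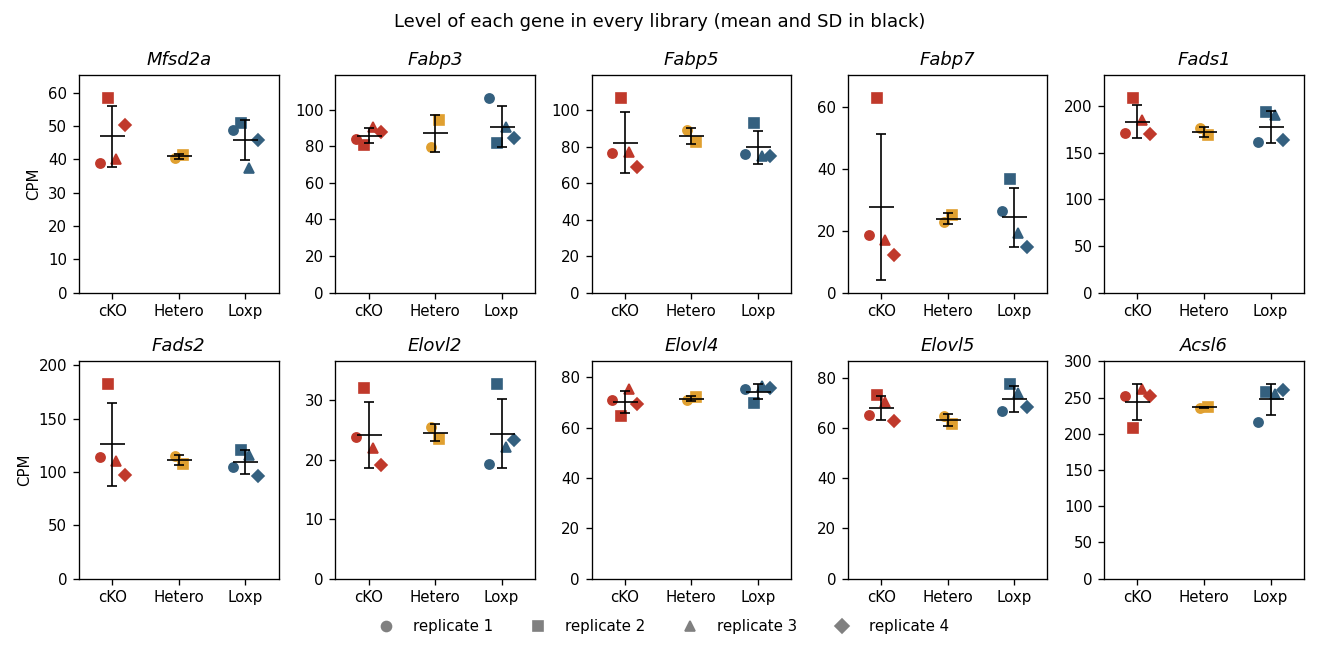
CPM of each of the 10 genes in every library, in cKO, Hetero and Loxp, with the marker shape giving the replicate and black lines the group mean and SD. The groups overlap in each panel, except Hetero and Loxp for Elovl5, and cKO replicate 2 stands highest for Mfsd2a, Fabp5, Fabp7, Fads1 and Fads2.

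Across the set, 5 of the 10 genes had a log2 fold change above 0 in cKO against Loxp, beside 50.1% of all genes tested, with a median of 0.01 (all genes 0.00033). In Hetero against Loxp 3 of the 10 did, beside 48.2%, with a median of −0.05 (all genes −0.0068). In cKO against Hetero 6 of the 10 did, beside 52.5%, with a median of 0.07 (all genes 0.0078). These comparisons share their libraries, since Loxp serves both groups with Cre. By role, the elongases Elovl2, Elovl4 and Elovl5 lay from −0.09 to −0.01 in cKO against Loxp, and the desaturases Fads1 and Fads2 at 0.05 and 0.20. Without the library labelled Loxp 4, the 10 genes ran from −0.11 to 0.15 in cKO against Loxp, 6 of them above 0, and from −0.19 to 0.09 in Hetero against Loxp, 1 of them above 0. Gene by gene, cKO then stood at 0.04 for Mfsd2a, −0.11 for Fabp3, 0.03 for Fabp5, 0.02 for Fabp7, 0.02 for Fads1, 0.15 for Fads2, −0.03 for Elovl2, −0.07 for Elovl4, −0.09 for Elovl5 and 0.01 for Acsl6. Hetero stood at −0.15 for Mfsd2a, −0.09 for Fabp3, 0.09 for Fabp5, −0.19 for Fabp7, −0.07 for Fads1, −0.02 for Fads2, −0.0046 for Elovl2, −0.04 for Elovl4, −0.19 for Elovl5 and −0.03 for Acsl6. Leaving that library out thus turned the sign for Acsl6 in cKO, and for Fads2 and Elovl2 in Hetero. Hetero 2 carried choroid plexus transcripts that the other libraries hardly had, a summed 762 CPM over 10 markers against 4.72 to 25.4 CPM elsewhere. Without Hetero 2, the median of the 10 genes in Hetero against Loxp was −0.07, with 3 above 0.

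Much of the spread within cKO lay in 1 library, cKO 2. Of the 10 genes, 5 were highest in cKO 2 out of all 10 libraries, where 20% of all genes tested were, and 2, Elovl4 and Acsl6, were lowest there, where 19.2% of all genes were. Fabp7 in cKO 2 was 3.25 times the median of the other 9 libraries and Fads2 was 1.66 times it, while Acsl6 was 0.821 times it. The remaining 3 cKO libraries were at 16.0 ± 3.39 CPM for Fabp7 and 107 ± 8.92 CPM for Fads2 (SD, n = 3 each). Fabp7 still ran from 12.2 to 18.7 CPM among them. As cKO 2 was singled out from these same values, lower fold changes without it follow in part from that choice. With any other single cKO or Loxp library left out, 4 to 6 of the 10 genes lay below 0 in cKO against Loxp. Among the Loxp libraries, Loxp 2 was the highest for Fabp5, Fabp7, Mfsd2a, Elovl2, Elovl5, Fads1 and Fads2. That library stayed in the fit without cKO 2. With Loxp 2 left out instead, the median of the 10 genes was 0.09 and Fabp7 stood at 0.45. Without cKO 2, 9 of the 10 genes had a log2 fold change below 0 in cKO against Loxp, where 50% of all genes did, and their median was −0.07. The exception was Acsl6, at 0.05. Elovl2 was then at −0.17, Elovl5 at −0.11, Fabp5 at −0.10, Mfsd2a at −0.08, Fabp3 and Elovl4 each at −0.05, Fads2 at −0.03 and Fads1 at −0.02. Without cKO 2 edgeR called 0 of the 10 genes, beside 0.00543% of all genes. The unadjusted edgeR p for Fabp7 was then 0.0264. That library was singled out with the Fabp7 values seen, so this p is a description and not a test.

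**Figure D4:**
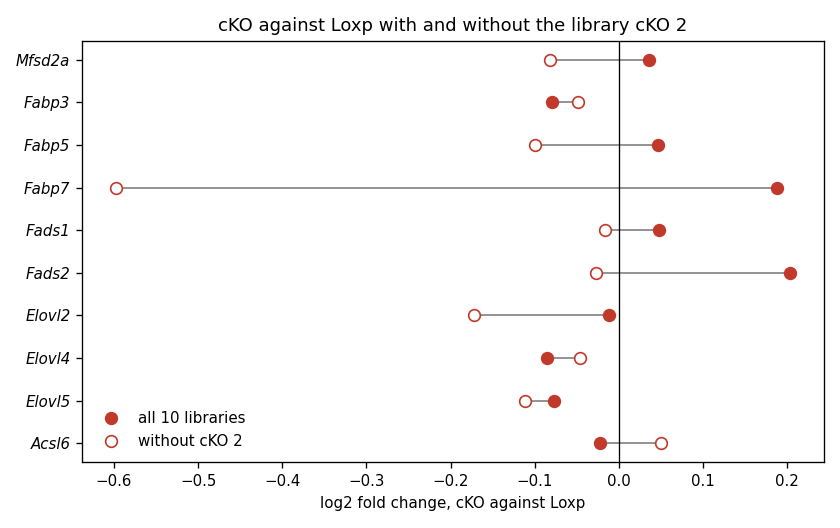
Log2 fold change of each gene in cKO against Loxp, with filled circles for all 10 libraries and open circles for the fit without cKO 2. Fabp7 lies at −0.60 and Fads2 at −0.03 without that library, against 0.19 and 0.20 with all libraries, and Elovl4 lies below 0 in both fits.

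Markers of several cell types set cKO 2 apart along with these genes. Oligodendrocyte precursor markers summed to 560 to 932 CPM in cKO, 540 to 654 CPM in Hetero and 585 to 696 CPM in Loxp, and 9 of the 10 markers were highest in cKO 2. Pdgfra, the growth factor receptor that defines these precursors, had 111 CPM in cKO 2 and 54.7 to 76.9 CPM in the other 9 libraries. Neural progenitor markers summed to 107 to 188 CPM in cKO, 126 to 147 CPM in Hetero and 119 to 173 CPM in Loxp, with 8 of 10 highest in cKO 2. Myelinating oligodendrocyte markers went the other way, at 6363 to 10745 CPM in cKO, 6964 to 10178 CPM in Hetero and 9026 to 11530 CPM in Loxp, with 12 of 15 lowest in cKO 2. Astrocyte markers summed to 5745 to 6305 CPM in cKO, 5470 to 5482 CPM in Hetero and 5119 to 6601 CPM in Loxp, with 9 of 15 highest in cKO 2. Microglia markers were highest there for 10 of 14 tested and meningeal fibroblast markers lowest for 8 of 10. Interneuron markers summed to 1235 to 1691 CPM in cKO, 1474 to 1559 CPM in Hetero and 1289 to 1746 CPM in Loxp. Of those 14 markers, 5 were lowest and 4 highest in cKO 2. After cKO 2, Loxp 2 had the highest precursor and progenitor sums, at 696 and 173 CPM. The astrocyte sum was highest in Loxp 2, at 6601 CPM. No marker of the precursor, oligodendrocyte or astrocyte lists was at 0 in any library, and of the progenitor list only Eomes was, in Hetero 2. What these cell types contribute to the values of Fabp7, Fads2 and the other genes was not tested.

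**Figure D5:**
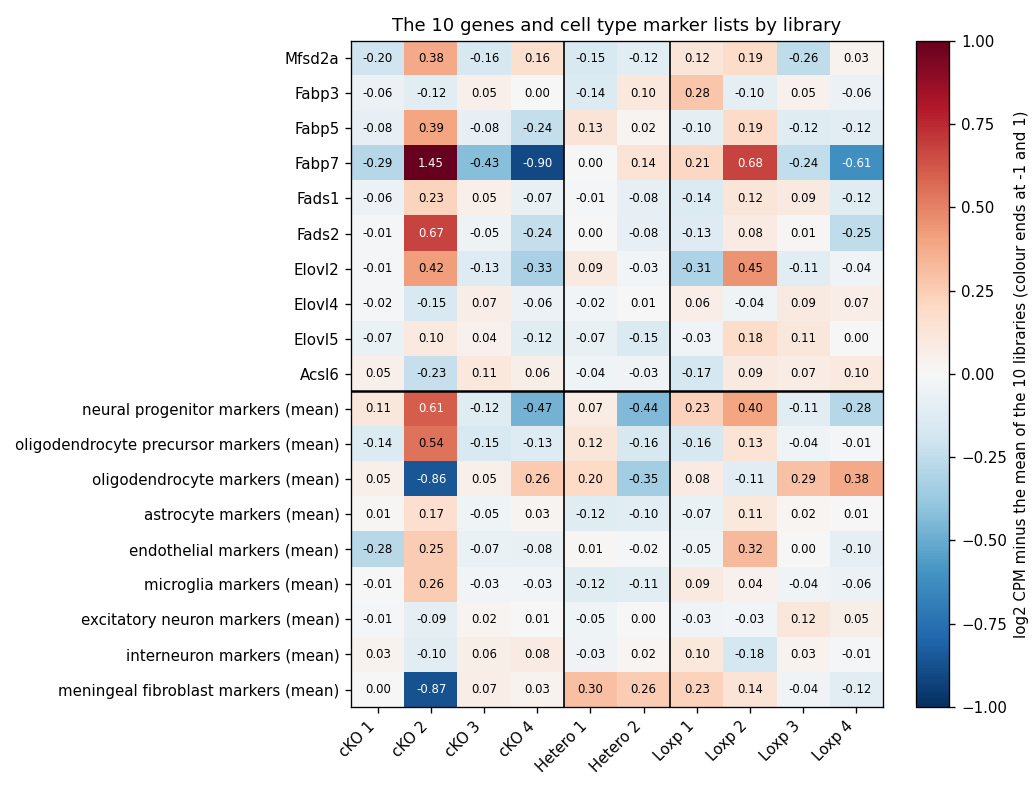
Log2 CPM of each of the 10 genes, and the mean log2 CPM of 9 marker lists, relative to the mean over the 10 libraries, in cKO, Hetero and Loxp libraries from left to right. In cKO 2, Fabp7 and Fads2 are high together with progenitor and oligodendrocyte precursor markers, while Acsl6 and the oligodendrocyte and meningeal fibroblast markers are low; Acsl6 is also low in Loxp 1, where those markers are not.

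The genes whose pattern over the libraries was most like that of each of the 10 are named next. Likeness was measured as Pearson's r of log2 CPM over the 10 libraries, among 10272 genes with a mean log2 CPM over 3, and is a description. The named genes were picked as the top 3 of these candidates, so a high r follows in part from that choice, and each gene's values share their library's depth and cell makeup. The nearest to Fabp7 were Ybx1 (r = 0.993), Hbegf (0.982) and Marcksl1 (0.975). Those to Fads2 were Acsf2 (0.985), Mtss1l (0.978) and Sh3bp4 (0.975), and those to Fads1 were Gng12 (0.956), Msn (0.944) and Lzic (0.939). Fabp3 was closest to Sh3bgrl3 (0.964), Cox14 (0.961) and Pam16 (0.958), and Fabp5 to Plxna3 (0.971), Lhfpl2 (0.963) and Kif21b (0.958). Mfsd2a was closest to Gpt (0.946), Pglyrp1 (0.946) and Ip6k1 (0.937). Elovl2 was closest to Kdr (0.950), Sec61a1 (0.948) and Map3k1 (0.947), Elovl4 to Ppm1a (0.922), Bhlhe40 (0.921) and Atmin (0.920), and Elovl5 to Kdelr2 (0.918), Scd2 (0.918) and Fermt2 (0.908). Acsl6 was closest to Ptprj (0.979), Prkca (0.976) and Rora (0.970). Without cKO 2 these r values were 0.831 to 0.984 over 9 libraries, with 0.984 for Fabp7 and Ybx1 and 0.917 for Fads2 and Acsf2. Scd2, the desaturase of monounsaturated fatty acids in brain, was the only enzyme of fatty acid desaturation among these neighbours.

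The rest of the DHA pathway, given as 5 further lists, gave 0 genes past the adjusted threshold in cKO against Loxp and in Hetero against Loxp. Of 13 other binding proteins and transporters, 6 were tested, with 5 above 0 in cKO against Loxp and 6 in Hetero against Loxp. Cd36, a scavenger receptor that takes up fatty acids, was near the floor at 0.118 to 1.43 CPM, with a log2 fold change of 1.35 in cKO against Loxp (SE 0.657) and 1.71 in Hetero against Loxp (SE 0.758). Slc27a1, a fatty acid transport protein of the blood-brain barrier and astrocytes, was at 0.13 in cKO against Loxp (SE 0.104), and Slc27a3 of the same family at 0.15 in Hetero against Loxp (SE 0.235).

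Of 18 other elongation, desaturation and peroxisomal genes, 17 were tested, with 7 above 0 in cKO against Loxp and 6 in Hetero against Loxp. Hsd17b12, the ketoacyl reductase that works with every elongase, was at −0.17 in cKO against Loxp (SE 0.0741), and Fads3, the neighbour of Fads2, at 0.23 (SE 0.120). In Hetero against Loxp, Scp2, a peroxisomal thiolase and sterol carrier, was at −0.20 (SE 0.0864). Of 19 other acyl-CoA synthetases and phospholipid acyltransferases, all 19 were tested, with 8 above 0 in cKO against Loxp and 7 in Hetero against Loxp. Lpcat3 and Lclat1, which place fatty acids into lysophospholipids, were at 0.13 (SE 0.0949) and 0.13 (SE 0.103) in cKO against Loxp. Acsl3, a synthetase of lipid droplets, was at −0.26 in Hetero against Loxp (SE 0.108). Agpat2, an acyltransferase of phosphatidic acid synthesis, was at 1.13 (SE 0.438), with levels of only 0.193 to 0.944 CPM.

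Of 18 genes of DHA release, conversion and reception, 15 were tested, with 8 above 0 in cKO against Loxp and 6 in Hetero against Loxp. Pla2g5, a secreted phospholipase, was at −0.51 (SE 0.248) and Rxra at 0.21 (SE 0.112) in cKO against Loxp. In Hetero against Loxp, Pla2g4b, a cytosolic phospholipase, was at −1.08 (SE 0.310) with levels of 0.664 to 1.65 CPM, and Ptgs2, the inducible cyclooxygenase, at −0.42 (SE 0.249). All 9 regulators of desaturase and elongase genes were tested, with 6 above 0 in cKO against Loxp and 4 in Hetero against Loxp. Nr1h3, the LXR alpha receptor, was at 0.41 in cKO against Loxp (SE 0.209) and 0.28 in Hetero against Loxp (SE 0.257). Mlxipl was at 0.28 in cKO against Loxp (SE 0.187), and Srebf1, which drives fatty acid synthesis genes, at −0.09 in Hetero against Loxp (SE 0.122). The adjusted p by edgeR was 1 for every gene named from these lists. The medians of the 5 lists ran from −0.03 to 0.09 in cKO against Loxp and from −0.07 to 0.11 in Hetero against Loxp.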

How the data were processed

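Total RNA of S1BF tissue was sequenced in 10 libraries (cKO 4, Hetero 2, Loxp 4). The deposited read counts per gene are the authors' own; the submitters' processing notes name featureCounts 1.5.0-p3 and the build mm10. The authors also deposited FPKM per gene and library, per the file headers. For the aligner, annotation, strand setting and the authors' own test, no source used here gives a name. From the counts, edgeR 4.0.16 in R 4.3.3 (TMM factors, filterByExpr, glmQLFit, glmQLFTest) fitted all 10 libraries with a mean per group, and Benjamini-Hochberg adjustment ran over all 18455 genes tested, of 32197 with a count. The common biological coefficient of variation was 14.9%. The SE of a log2 fold change is its size divided by the square root of F, and the 95% interval follows from it. Values of log2 CPM, which do not enter that interval, used a prior count of 2. The FPKM were used for levels across genes. Between libraries the chi-square per gene was 5.1 to 43, and none duplicated another.

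The 10 genes and all lists were chosen with earlier results of these data known. All 10 are named, with 2 genes per further list and comparison by the smallest p, and the 3 genes with the highest r per gene, symbols that are model or clone names left out. A gene that this rule names is not reported here. Coordinates are from GENCODE M21, and coding sequences were compared with blastn 2.17.0 and mafft 7.526. The test was checked on simulated counts drawn as independent libraries. Such counts cannot show how it performs where libraries correlate or 1 stands apart. Alternatives were DESeq2 size factors, library size alone, other low-count filters, a replicate block, the compared groups alone, DESeq2 1.42.0, limma-voom (limma 3.58.1) and each library left out.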

Additional observations from a re-analysis of the deposited data

Results flagged for a closer look

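Within groups of 4 libraries, the gap of the most extreme library to its neighbour was divided by the whole range and set against Dixon's 95% critical value. Fabp7 in cKO 2 was far from the other cKO libraries, at 62.8 CPM. Fabp5 in Loxp 2 was far above the other Loxp libraries, at 92.9 CPM. Acsl6 in Loxp 1 was far below the other Loxp libraries, at 216 CPM. Chance flags about 1 in 20 groups, and 20 groups (10 genes in cKO and in Loxp) were looked at, so the 3 values are a description.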

How the results depend on the processing

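No DHA gene passed the adjusted threshold under any alternative run, and of 440 recomputed fold changes of the 10 genes 397 kept their direction. The number of all genes called by edgeR was 0 in each comparison, and with no low-count filter it became 32 for cKO and 68 for Hetero against Loxp, and 39 for cKO against Hetero. With the replicate block it was 1 in cKO against Loxp and 1 in Hetero against Loxp, and DESeq2 called 20 in Hetero against Loxp and 3 in cKO against Hetero. Leaving out each library gave 0 to 1 (1 without cKO 2), 0 to 15 and 0 to 14 (both without Hetero 1). The median of the 10 genes ran from −0.07 to 0.09 in cKO against Loxp, from −0.07 to −0.02 in Hetero against Loxp, and from 0.0053 (without cKO 2) to 0.10 (without cKO 4) in cKO against Hetero, where the replicate block gave 0.10 and limma-voom 0.011. Limma-voom put Fabp7 at −0.040, 0.082 and −0.12 in those same 3 comparisons. The replicate block put Fabp7 at 8.46e-05 in cKO against Loxp, at −0.47 in Hetero against Loxp and at 0.47 in cKO against Hetero. Under it Hetero against Loxp had Fabp5 at −0.0011, Elovl2 at −0.11, Fads2 at −0.11 and Acsl6 at 0.0076, and cKO against Hetero had Fabp5 at 0.036, Elovl2 at 0.093 and Acsl6 at −0.031. Leaving out 1 library at a time also turned signs, those of the largest values in cKO against Loxp (Fads2 and Fabp7) among them. In that comparison the ranges were −0.13 to 0.0038 for Fabp3, −0.10 to 0.13 for Fabp5, −0.60 to 0.45 for Fabp7, −0.082 to 0.12 for Mfsd2a, −0.17 to 0.16 for Elovl2, −0.016 to 0.092 for Fads1, −0.027 to 0.31 for Fads2 and −0.083 to 0.051 for Acsl6. In Hetero against Loxp they were −0.18 to 0.055 for Fabp3, −0.19 to 0.25 for Fabp7, −0.088 to 0.18 for Elovl2, −0.081 to 0.0059 for Fads1 and −0.023 to 0.078 for Fads2. In cKO against Hetero they were −0.13 to 0.11 for Fabp3, −0.21 to 0.011 for Fabp5, −0.59 to 0.45 for Fabp7, −0.19 to 0.074 for Elovl2, −0.067 to 0.0039 for Elovl4 and −0.058 to 0.28 for Fads2. With 1 Hetero library left, that library was assumed to vary like the other groups. The causes were not tested. Deviations from the group means correlated at −0.0257 to 0.322 over 8 same-numbered pairs, 2 of them over 0.1. Other pairs between groups reached at most 0.0349. Between cKO and Loxp the same-numbered pairs were at 0.0952, 0.199, 0.0419 and 0.322, all above that. The deviations of the 2 Hetero libraries mirror each other, so pairs with Hetero cannot show pairing. Each cKO library thus correlated best with the Loxp library of its own number, a hint from the data and not from the design. The main fit had no term for the replicate number. For Fabp7 the 95% interval reached beyond 1.5-fold in every comparison, from −0.72 to 1.10 in cKO against Loxp. Differences larger than 1.5-fold could therefore also have been missed for that gene.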
